A study of Rattus norvegicus with 10 samples.

Results

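The genes described here make, pack, clear and break down gamma-aminobutyric acid (GABA) or encode its metabotropic receptor: Gad1, Gad2, Slc32a1, Slc6a11, Slc6a13, Abat, Gabbr1 and Gabbr2. Every probe set whose platform annotation gives 1 of these 8 genes as its only symbol was taken, which gave 16 of 31042 probe sets. RNA came from the nucleus tractus solitarii (NTS), where baroreceptor and other visceral afferents enter the brainstem, and was read on Affymetrix Rat 230 2.0 arrays. The spontaneously hypertensive rat (SHR), an inbred model of high blood pressure, was set against the normotensive Wistar-Kyoto rat (WKY), with 5 arrays each. Rats of both strains were male and 10 to 13 weeks old, and the labels name no treatment or transgene in either. The descriptions of the samples give 5 animals each whereas the design text calls each array a biological replicate, so an array may hold a pool, and p-values reflect the spread of these arrays alone.

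GABA is the main fast inhibitory transmitter of the brain, and GABA neurons of the NTS restrain the second-order neurons that relay the baroreflex. Glutamate decarboxylase, encoded by Gad1 (GAD67) and Gad2 (GAD65), makes GABA from glutamate, and the vesicular transporter encoded by Slc32a1 loads it into synaptic vesicles. After release, plasma membrane transporters such as GAT3 (Slc6a11) and GAT2 (Slc6a13) take GABA up, and GABA transaminase (Abat), a mitochondrial enzyme of neurons and glia, degrades it to succinic semialdehyde. The GABA-B receptor is an obligate pair of Gabbr1, which binds GABA, and Gabbr2, which couples to the G protein.

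The arrays had been scaled by the authors to 1 trimmed mean, and signals are given in those linear units. Array medians were 44.2 to 49.8 in SHR and 39.6 to 45.7 in WKY, and arrays correlated at 0.947 to 0.988. SHR 3 and SHR 2 had the highest medians and WKY 5 and WKY 4 the lowest, and SHR 1 and SHR 5 correlated slightly better with the WKY arrays than with the other SHR arrays. The vesicular glutamate transporter gene Slc17a6, which brainstem glutamate neurons use, had 998 in SHR and 1056 in WKY. Tlx3, a transcription factor of NTS glutamate neurons, was dim, at 3.36 in SHR and 3.39 in WKY, and Lmx1b, which also marks NTS neurons, had no probe set with a single symbol. In bulk tissue, fewer cells of a type and less RNA per cell cannot be told apart.

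A filter kept probe sets that reached the 40th percentile of an array, a signal of 26.3 to 35.9, on at least 5 of the 10 arrays. It kept 7 of the 16 probe sets, which stand for Gad1, Slc32a1, Abat, Gabbr1 (3 probe sets) and Gabbr2. All 7 were above that percentile on all 10 arrays, so none was kept by 1 strain alone. The other 9, among them the only probe sets of Gad2, Slc6a11 and Slc6a13, ran from 2.19 to 52.01 and say little about those genes. Differences are SHR minus WKY on the scale of log2(signal + 16), fitted in limma over all 18846 kept probe sets.

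Of the 7 kept probe sets, 1 passed the threshold, an adjusted p below 0.05: that of Abat, which was lower in SHR. None was higher in SHR (0 of 7). Over all kept probe sets 4.26% passed, 2.20% lower and 2.06% higher in SHR, and 1 call among 7 is not read as a change of the whole group. The count rests on single arrays: without SHR 5, 3 of the 7 were lower and 1 was higher, and without SHR 1, SHR 4, WKY 3 or WKY 4 none was lower (0 of 7). The brightest probe sets of Gad1 and Slc32a1, the genes that make and pack GABA, had log2 differences of -0.30 and -0.26 with adjusted p-values of 0.0619 and 0.0680, just above the threshold. Those of Gabbr1 and Gabbr2 had differences of 0.09 and -0.06. Of the 7, 5 differences were below 0, against 46.0% of all kept probe sets, and 3 of the 7 were probe sets of Gabbr1. The median of the 7 was -0.11, against 0.016 over all kept probe sets. An unadjusted p below 0.05 was reached by 4 of the 7 and by 21% of all kept probe sets. The SHR and WKY arrays overlapped on all 16 probe sets, so 0 of 7 kept ones were separated by strain, against 6.13% of all kept probe sets.

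**Figure D1:**
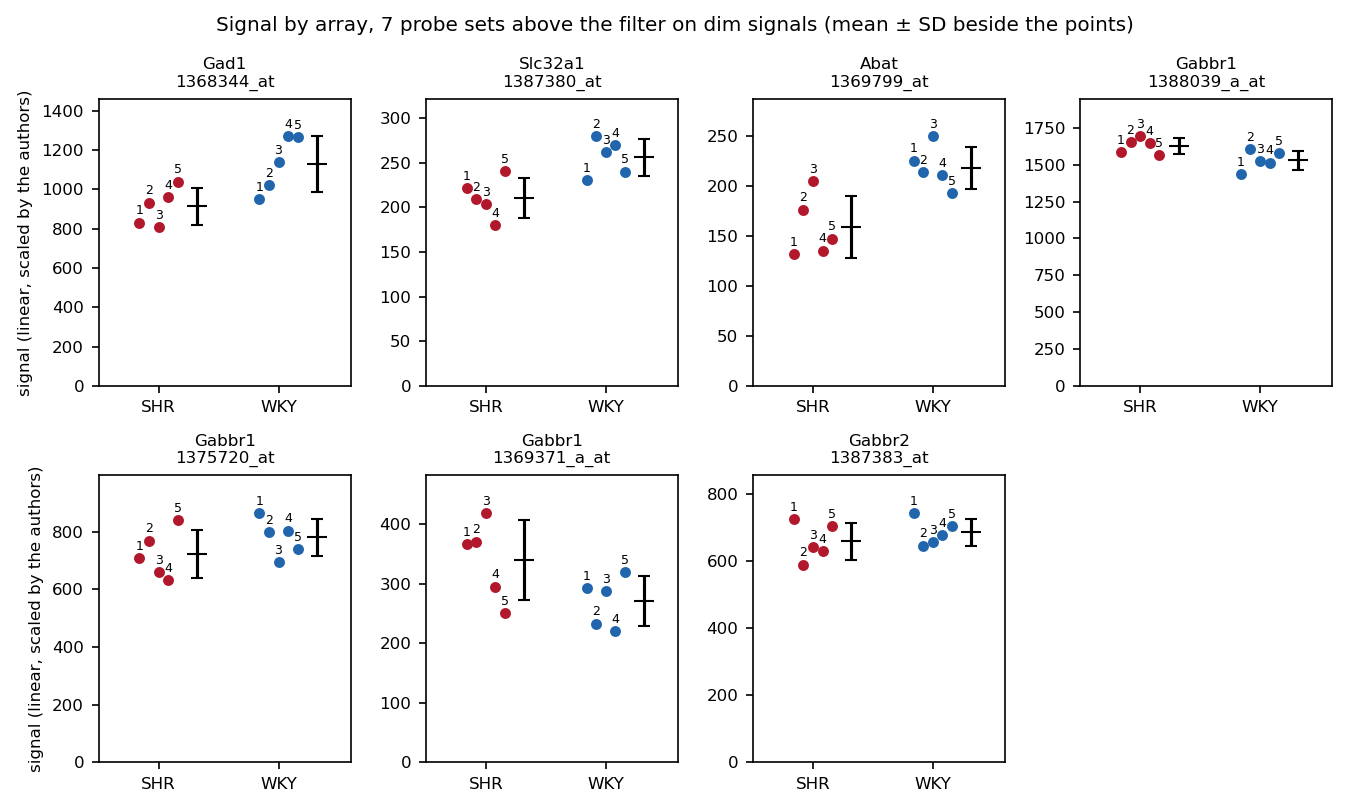
Signal on each array (y axis, linear units scaled by the authors, from 0) for the 7 kept probe sets, with SHR on the left and WKY on the right of each panel. Points carry the array number and bars give the mean ± SD of 5 arrays. For Abat only SHR 3 reached into the WKY range, and for Slc32a1 only SHR 5.

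Gad1 encodes GAD67, the isoform that makes most of the GABA of resting neurons. Its brighter probe set, 1368344_at, had signals of 830.4, 933, 807, 960.2 and 1038 in SHR 1 to 5, against 949, 1022, 1138, 1269.8 and 1267 in WKY 1 to 5. SHR 1, SHR 2 and SHR 3 lay below all WKY arrays, while SHR 4 and SHR 5 lay above WKY 1, the lowest of its strain. The means were 914 ± 95.3 in SHR and 1129 ± 144 in WKY (SD, n = 5), with a log2 difference of -0.30 ± 0.087 (SE; limma adjusted p = 0.0619). The 95% interval of the difference ran from -0.48 to -0.11 before adjustment for the number of probe sets. Without SHR 5 or without WKY 1 the difference passed (adjusted p = 0.0339 and 0.0283), and it also passed with quantile normalization (-0.28; adjusted p = 0.0419). With a covariate for array median signal it shrank to -0.09 (adjusted p = 0.803), and that covariate overlaps with strain.

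The dimmer probe set of Gad1, 1370760_a_at, held 3.70 to 20.2 in SHR and 2.31 to 15.7 in WKY. Its strains overlapped over nearly their whole range. Gad2 encodes GAD65, the isoform tied to synaptic vesicles, and its probe set 1369462_at had 6.61, 14.2, 3.74, 5.08 and 5.29 in SHR and 7.35, 9.69, 10.4, 5.85 and 17.1 in WKY. In both strains it was far below the filter, although GABA neurons commonly use this gene. Fitted without the filter, its log2 difference was -0.18 ± 0.14 (adjusted p = 0.506), and no comparison of Gad2 is drawn from these arrays.

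Slc32a1 encodes the vesicular inhibitory amino acid transporter, which loads GABA and glycine and marks inhibitory neurons of both kinds. Its probe set 1387380_at had signals of 222, 209, 203, 180.3 and 241 in SHR 1 to 5, against 230.5, 279.6, 262, 270.0 and 239.9 in WKY 1 to 5. All SHR arrays but SHR 5 lay below the lowest WKY array. The means were 211 ± 22.4 in SHR and 256 ± 20.6 in WKY (SD, n = 5), with a log2 difference of -0.26 ± 0.079 (SE; limma adjusted p = 0.0680). This difference passed only in the fit without SHR 5 (-0.31, limma adjusted p = 0.0338) among the 23 alternatives tried. Its sign was negative in all 23. With the covariate for array median signal it was -0.23 (limma adjusted p = 0.480), and without SHR 2 and SHR 3 it was -0.25 (limma adjusted p = 0.188).

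The plasma membrane transporters could not be compared with confidence. Slc6a11, which encodes GAT3, the transporter of astrocytes, had 23.9, 16.8, 23.5, 24.2 and 22.9 in SHR and 20.2, 14.9, 25.4, 15.6 and 18.5 in WKY on 1369715_at. The SHR values lay within the WKY range, and the log2 difference was 0.14 ± 0.13 (fit without the filter; adjusted p = 0.593). Slc6a13 encodes GAT2, which in rodent brain is found mainly in the meninges. Its probe set 1387372_at held 4.45 to 22.1 in SHR and 5.08 to 20.9 in WKY, with a log2 difference of 0.0036 ± 0.20 (fit without the filter; adjusted p = 0.995).

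Abat encodes GABA transaminase, the enzyme that degrades GABA. Its brightest probe set, 1369799_at, had signals of 132, 177, 205, 135 and 148 in SHR 1 to 5, against 225, 214, 249.8, 211 and 193 in WKY 1 to 5. SHR 1, SHR 2, SHR 4 and SHR 5 lay below all WKY arrays, and SHR 3 lay above WKY 5 alone. The means were 159 ± 30.9 in SHR and 219 ± 21.02 in WKY (SD, n = 5). Abat was lower in SHR, with a log2(signal + 16) difference of -0.43 ± 0.10 (SE; limma adjusted p = 0.0244), with a 95% interval of -0.65 to -0.21 before adjustment.

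SHR 3 and SHR 2, the arrays with the highest median signal, held the highest Abat signals of their strain. Without both, the log2 difference was -0.60 (adjusted p = 0.000687), and with the covariate for median signal it was -0.68 (adjusted p = 0.00493). Leaving out the highest SHR arrays widens a difference in this direction by design, and the covariate overlaps with strain. Neither value is read as a stronger result. The call ended in 5 of the 10 fits with 1 array left out, with adjusted p-values up to 0.0639: without SHR 1, SHR 4, WKY 1, WKY 3 or WKY 4. It also ended without the filter (0.0546) and without the intensity trend (0.0543).

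The 2 dimmer probe sets of Abat did not show a lower signal in SHR. On 1391365_at the signals were 28.5, 33.8, 11.8, 52.01 and 33.2 in SHR, against 17.3, 25.9, 13.4, 15.4 and 17.4 in WKY. Of the SHR arrays, 4 lay above all WKY arrays and SHR 3 lay below them all. The log2 difference was 0.45 ± 0.20 (fit without the filter; limma adjusted p = 0.256). On 1375321_at the signals were 20.03, 30.6, 36.7, 17.0 and 15.9 in SHR, against 25.2, 24.02, 17.2, 13.1 and 12.1 in WKY. Only SHR 2 and SHR 3 lay above all WKY arrays, and the log2 difference was 0.21 ± 0.17 (adjusted p = 0.549).

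Whether the probe sets of a gene differed in their strain difference was tested on the log2 ratio of both within each array, over the 15 pairs that Gad1, Abat, Gabbr1 and Gabbr2 allow. The dim Abat probe sets 1375321_at and 1391365_at reached the 40th percentile on 1 and 2 of the 10 arrays, so ratios to them rest on signals not shown to be above background and do not show that the probe sets disagree. The ratio of 1369799_at to 1375321_at was 2.04 to 2.36 in SHR and 2.52 to 3.003 in WKY, without overlap. The difference of these ratios was -0.64 (exact permutation test over arrays, two-sided p = 0.00794, adjusted p = 0.0595 over the 15 pairs). That unadjusted p is the smallest that 5 against 5 arrays allow. For 1369799_at against 1391365_at it was -0.89 (exact permutation p = 0.0397; adjusted p = 0.149). The smallest p was not particular to Abat: Gabbr1 1375720_at against the dim 1369372_at gave -0.49 (exact permutation p = 0.00794; adjusted p = 0.0595). Gabbr1 1388039_a_at against 1369372_at gave -0.28 (exact permutation p = 0.0159; adjusted p = 0.0794). After adjustment 0 of the 15 pairs passed, while 4 had an unadjusted p below 0.05, both counts from the same permutation test; with this smallest p, at least 3 pairs would have had to reach it together for any of them to pass by it. Without SHR 3, 3 pairs passed. The lower Abat signal in SHR was measured on 1 of its 3 probe sets, the only one kept by the filter.

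**Figure D2:**
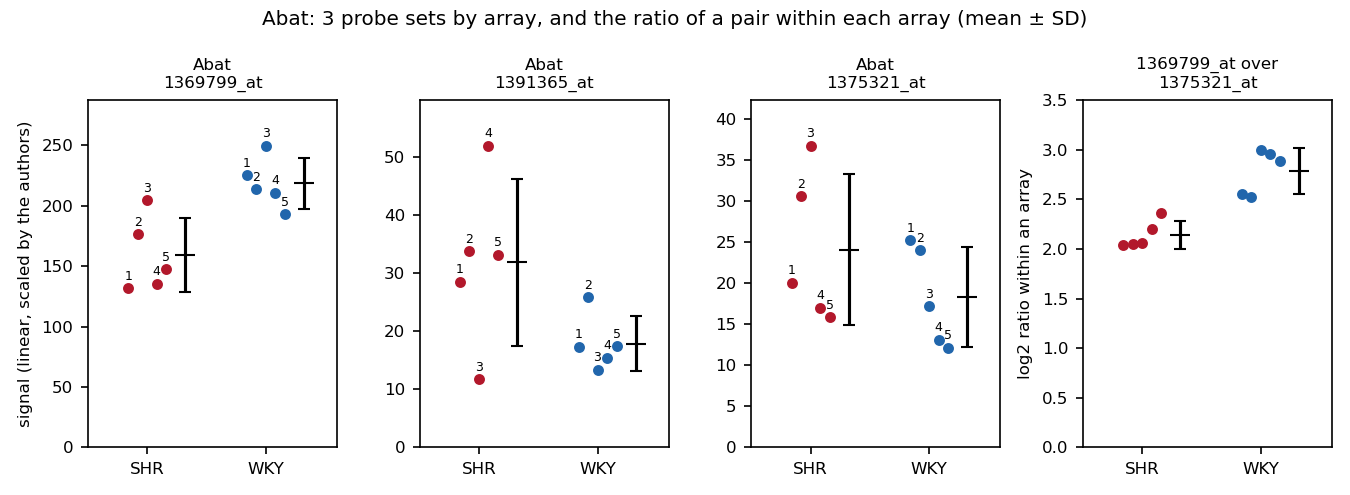
The first panels give the signal of the 3 Abat probe sets on each array (y axis, linear units from 0), SHR left and WKY right, with array numbers and the mean ± SD of 5 arrays. The last panel gives the log2 ratio of 1369799_at to 1375321_at within each array, where the SHR arrays (2.04 to 2.36) lie below the WKY arrays (2.52 to 3.003).

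Gabbr1 encodes the subunit of the GABA-B receptor that binds GABA, and alternative transcripts make long and short forms that differ at the amino end. It had 5 probe sets, 3 of them named with the suffix _a_at, which marks probes shared by alternative transcripts of a gene. Which form each detects was not determined here. The brightest, 1388039_a_at, had 1585, 1651, 1692, 1646 and 1564 in SHR and 1436, 1603, 1524, 1514 and 1576 in WKY. Its arrays overlapped, and the log2 difference was 0.09 ± 0.052 (SE; limma adjusted p = 0.349), with a 95% interval of -0.02 to 0.20.

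The next, 1375720_at, had 708, 768, 658, 632 and 839 in SHR and 865, 798, 694, 802 and 739 in WKY, giving a log2 difference of -0.11 ± 0.078 (limma adjusted p = 0.427). SHR 3 and SHR 4 lay below all WKY arrays. On 1369371_a_at the order was the other way, with 367, 371, 419, 295 and 250.3 in SHR and 293, 233, 288, 219.9 and 319.7 in WKY. SHR 1, SHR 2 and SHR 3 lay above all WKY arrays, and the log2 difference was 0.31 ± 0.12 (limma adjusted p = 0.162). That difference passed only without SHR 5 (0.40; adjusted p = 0.0444), and it was 0.10 with the median-signal covariate and 0.16 without SHR 2 and SHR 3. The log2 ratio of 1375720_at to 1369371_a_at was 1.06 in SHR and 1.48 in WKY, a difference of -0.42 (exact permutation p = 0.0794; adjusted p = 0.149), so the kept probe sets of Gabbr1 were not shown to differ in their strain difference.

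Of the dim probe sets of Gabbr1, 1369372_at had 9.01, 12.9, 7.99, 13.3 and 9.91 in SHR and 3.03, 8.22, 3.38, 3.00 and 5.30 in WKY. All SHR arrays but SHR 3 lay above all WKY arrays, at signals far below the filter, and the log2 difference was 0.37 ± 0.10 (fit without the filter; limma adjusted p = 0.0780). The other, 1388030_a_at, held 20.7 to 30.02 in SHR and 17.2 to 31.0 in WKY. Its log2 difference was 0.12 ± 0.13 (adjusted p = 0.644).

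Gabbr2 encodes the subunit that couples the GABA-B receptor to its G protein and brings Gabbr1 to the cell surface. Its brighter probe set, 1387383_at, had 725, 589, 641, 629 and 704 in SHR and 743, 645, 655, 677 and 704 in WKY. SHR 2, SHR 3 and SHR 4 lay slightly below all WKY arrays, and the means were 658 ± 55.8 in SHR and 685 ± 39.6 in WKY (SD, n = 5). The log2 difference was -0.06 ± 0.065 (SE; limma adjusted p = 0.642), with a 95% interval of -0.20 to 0.08. The dim probe set 1368952_at held 2.19 to 17.8 in SHR and 5.26 to 12.5 in WKY.

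**Figure D3:**
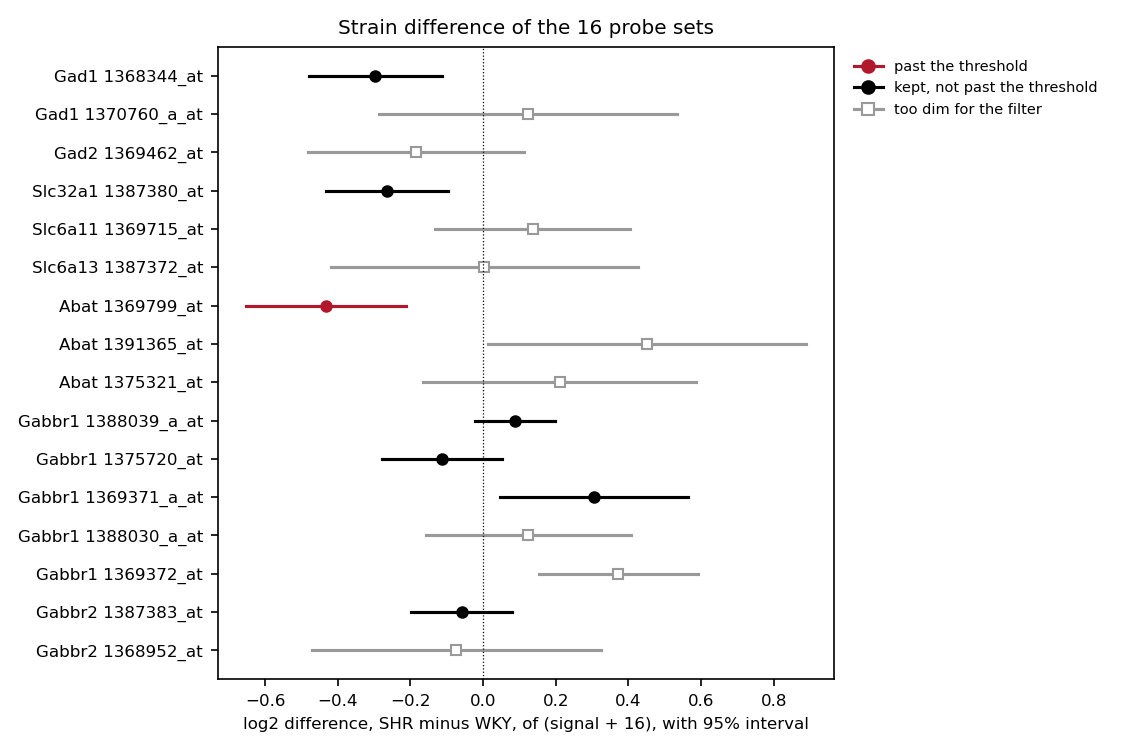
Log2 difference, SHR minus WKY, of signal + 16 (x axis) for the 16 probe sets (y axis), with the 95% interval before adjustment. Filled points were kept by the filter and open squares were too dim for it, and the 1 probe set past the threshold is that of Abat at -0.43.

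Other genes of GABA metabolism, reception and inhibitory neurons were taken from 5 lists, 81 genes in all, of which 53 were tested, each on its brightest kept probe set. Of these 53, 2 were lower (Glul and Glra2), 1 was higher (Gabarapl1) and 50 did not pass, 5.66% called. Of all 10668 genes so represented, 3.97% passed, 2.31% lower and 1.67% higher in SHR. The median log2 difference was 0.13 over 10 GABA-A receptor subunits, -0.026 over 10 genes of GABA metabolism and transport, 0.017 over 15 GABA-B partners and effectors, -0.029 over 11 genes of the inhibitory synapse, glycine and chloride, and 0.063 over 7 GABA neuron subtype markers. Over all genes it was 0.0020. None of the 10 GABA-A subunits and none of the 15 GABA-B partners, which include the G protein-gated potassium channel genes Kcnj3 and Kcnj6, passed in limma. An unadjusted p below 0.05 was reached by 1 of 10 GABA-A subunits, 2 of 10 genes of GABA metabolism and transport, 1 of 15 GABA-B partners, 5 of 11 genes of the inhibitory synapse list and 1 of 7 subtype markers, against 20.1% of all genes.

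Glul encodes glutamine synthetase, the astrocyte enzyme that makes the glutamine from which neurons renew glutamate and GABA. Its brightest probe set had 1462, 1416, 1504, 1557 and 1561 in SHR and 1582, 2022, 2045, 1886 and 2074 in WKY. Every SHR value was under the lowest WKY value, and the log2 difference was -0.35 ± 0.070 (SE; limma adjusted p = 0.00776). Its other kept probe sets differed by 0.00999 and 0.12 and did not pass. Glra2, a glycine receptor subunit, had 144, 129, 107, 133 and 165 in SHR and 171, 169.6, 206, 231 and 247 in WKY, giving a log2 difference of -0.54 ± 0.11 (limma adjusted p = 0.00992). Here too the strains did not overlap, but a second probe set differed by 0.011. The strains did not overlap for 5 of the 53 tested genes of the lists, against 615 of all 10668 genes.

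Gabarapl1 encodes a ubiquitin-like protein of autophagy related to the GABA-A receptor-associated protein. Its probe sets went opposite ways and both passed: the brighter was higher in SHR at 1633 ± 83.9 in SHR and 979.8 ± 47.5 in WKY (SD, n = 5), with a log2 difference of 0.73 ± 0.056 (limma adjusted p = 2.91e-07). The dimmer was lower in SHR at 192 ± 19.02 in SHR and 274 ± 39.8 in WKY, giving a log2 difference of -0.47 ± 0.090 (limma adjusted p = 0.00564). Aldh5a1, chosen after its values were seen, encodes the dehydrogenase that takes the product of Abat to succinate. Its brightest probe set differed by 0.021, the next by -0.53 (adjusted p = 0.184) and the third by 0.63 (adjusted p = 0.0446), and the third alone passed. The third was dim, at 32.6 to 68.1 in SHR and 19.3 to 40.1 in WKY. WKY 2, WKY 4 and WKY 5 lay below the 40th percentile that the filter used, so this call is not read as a change of Aldh5a1. Whether the probe sets of these genes of the lists differed from each other was not tested.

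**Figure D4:**
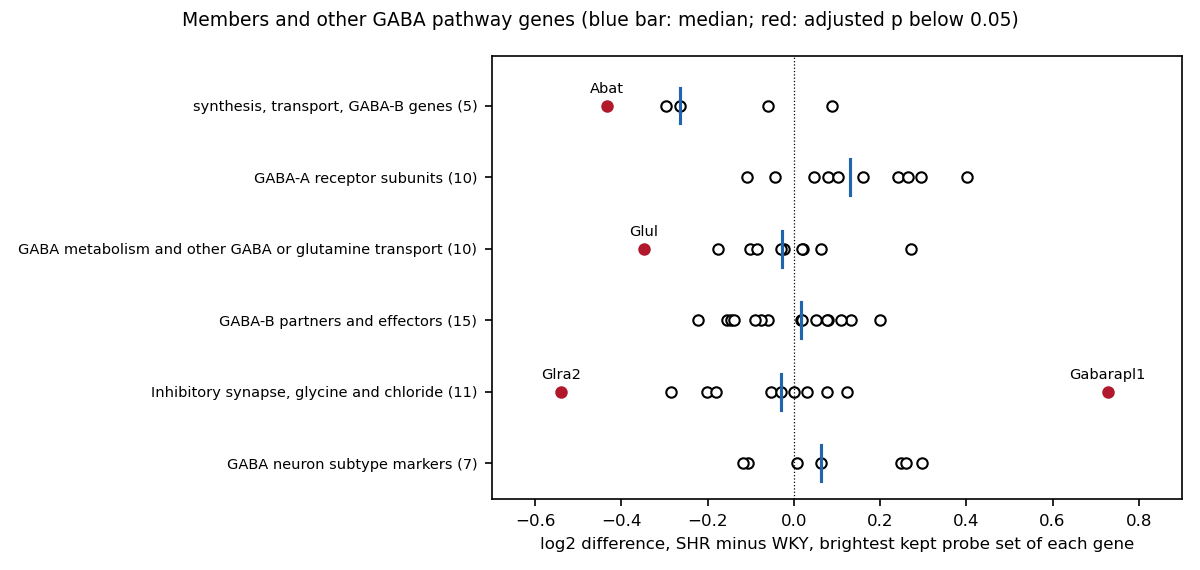
Log2 difference, SHR minus WKY, on the x axis, each gene by its brightest kept probe set, for the 5 tested genes of GABA synthesis, transport and GABA-B receptors (top row) and for 5 lists of other GABA pathway genes (number tested in brackets). Blue bars are medians and red points passed the threshold: Abat at -0.43, Glul at -0.35, Glra2 at -0.54 and Gabarapl1 at 0.73.

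The summed signals of markers of 3 other cell types did not overlap between strains. How often the sums of other sets of genes separate was not tested. For the single genes that passed, the shares over all genes were 2.31% lower and 1.67% higher. Differences below 0 made up 49.5% over all genes. The summed signal of 11 microglia markers was 2327 to 2512 in SHR and 2842 to 3141 in WKY. Of 11 tested, 4 were lower, 0 were higher and 10 differences were below 0. That of 12 meningeal and fibroblast markers was 1459 to 1672 in SHR and 1809 to 2031 in WKY, with 1 of 9 tested lower. Of those 9, 5 differences were below 0 with a median of -0.016. An unadjusted limma p below 0.05 was reached by 5 of the 9, against 20.1% of all genes. The gene that passed was Ptgds (756 in SHR and 933 in WKY). Col1a2 differed by -0.66 and Aldh1a2 by -0.48, whereas Col3a1 differed by 0.30 and Col1a1 by 0.17, and none of these passed. The sum of 6 cerebellar granule cell markers was 437 to 455 in SHR and 299 to 424 in WKY. Of 4 tested, 0 passed the threshold in limma (1 had an unadjusted p below 0.05), and the defining gene Gabra6 was below the filter. Apart from Cbln1 (250 in SHR and 220 in WKY), these markers were dim, with means of at most 55.7 in SHR and 48.4 in WKY. The part of these 3 cell types in the Abat difference was not tested.

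The sums of neuronal and astrocyte markers did overlap between strains. Those of 10 astrocyte markers were 16451 to 19713 in SHR and 15927 to 17644 in WKY, with 0 of 10 past the threshold in limma, 3 at an unadjusted p below 0.05 and 4 of 10 differences below 0. Those of 9 pan-neuronal markers were 13299 to 14901 in SHR and 11883 to 13713 in WKY, with 1 of 9 higher (Snap25, a protein of vesicle fusion) and 0 lower. The GABA neuron subtype markers summed to 3056 to 3390 in SHR and 2985 to 3258 in WKY, with 0 of 7 past the threshold in limma and 1 at an unadjusted p below 0.05. The median sum was 18648 in SHR and 16699.8 in WKY for astrocyte markers and 14276 in SHR and 13131 in WKY for pan-neuronal markers, and the part of these cells in the differences of the members was not tested. Of the remaining marker lists, 1 of 7 oligodendrocyte and 1 of 8 endothelial and pericyte genes were lower. Of 6 choroid plexus genes, 2 were higher (over all genes, 2.31% were lower and 1.67% higher). Of these 2, Sostdc1 was dim, at 46.1 in SHR and 28.7 in WKY, and its WKY mean lay within the filter's 40th percentiles (26.3 to 35.9). Among glutamate neuron genes, 0 of 2 passed in limma (0 at an unadjusted p below 0.05).

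The genes whose log2 signals followed Abat most closely over the 10 arrays were Ptgr3 (Pearson r 0.957), Olfml1 (0.947) and Cog4 (0.947), chosen as the 3 highest of all genes and so given as a description with no test. After the strain means were removed, r was 0.907, 0.943 and 0.865. For Gad1 they were Nap1l3, Ubl3 and Minpp1 (0.956 to 0.966), and for Slc32a1 Clpp, Otud1 and Kctd4 (0.913 to 0.925). Hsp90ab1, Sesn2 and Gprasp1 came first for Gabbr1 (0.950 to 0.970), and Tmem216, Myh7 and Paxbp1 for Gabbr2 (0.917 to 0.942). No member was among them. With the 4 protein-coding genes on each side of every member in assembly GRCr8, 34 neighbours were tested and 0 passed in limma, while 8 of 34 had an unadjusted p below 0.05, against 20.1% of all genes. The nearest tested neighbours of Abat, Tmem186 and Mettl22, differed by 0.081 and 0.039. Farther out, Pmm2 differed by -0.012, Carhsp1 by 0.22 and Rbfox1 by -0.24 (limma adjusted p = 0.952, 0.113 and 0.119).

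**Figure D5:**
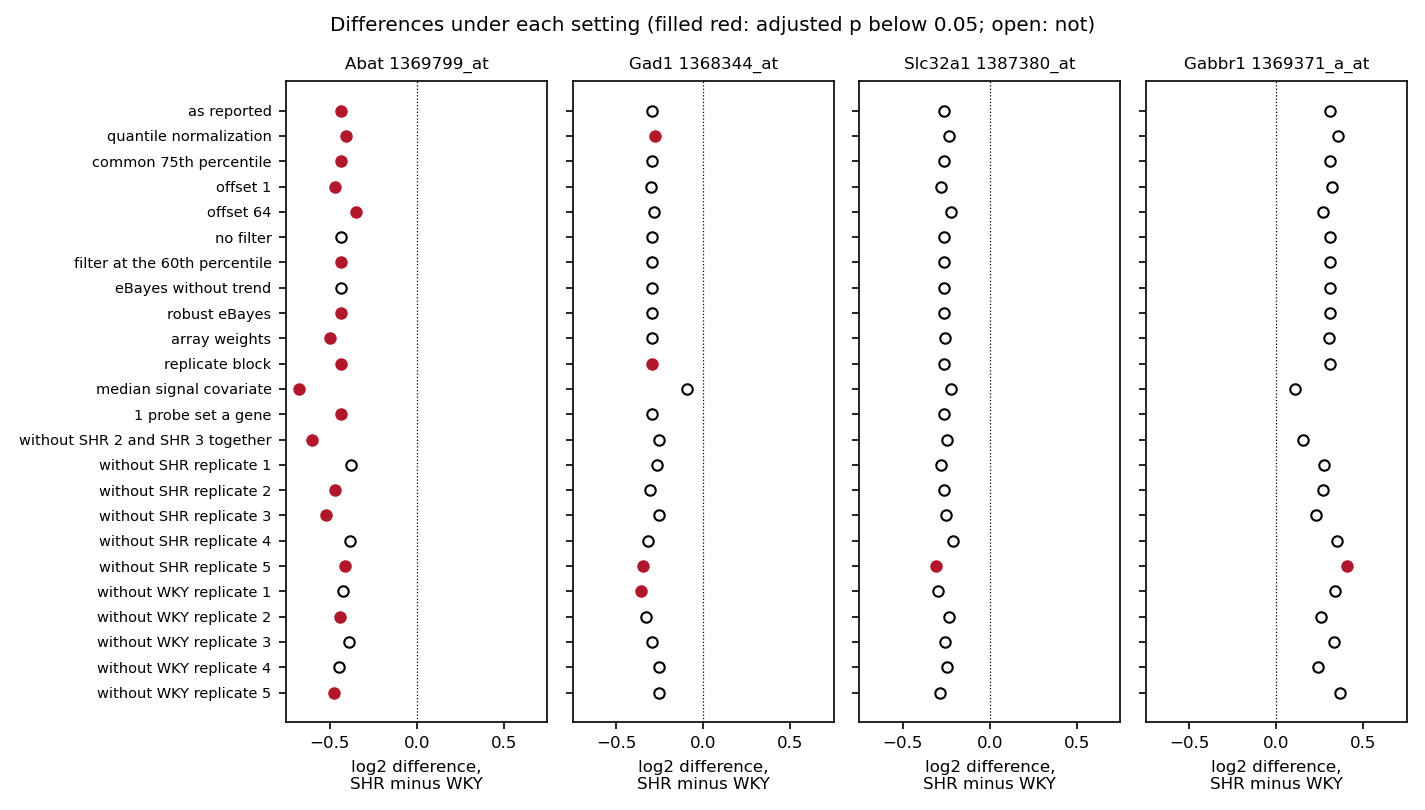
Log2 difference, SHR minus WKY (x axis), of the Abat, Gad1, Slc32a1 and 1369371_a_at Gabbr1 probe sets under each way of processing (y axis); filled red points have an adjusted p below 0.05. All points keep the side of 0 they had as reported, Abat passes in 16 of 23 alternatives, and Slc32a1 passes in 1.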

How the data were processed

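Total RNA was amplified with a MessageAmp II kit, per the labels' protocols. The authors' deposited values are linear intensities, 1 for each probe set and array, and per the submitters' processing notes GCOS 1.2 was used. Background step, detection calls and scan dates were not stated in the sources. The values show that each array had been scaled to a mean of 100 after trimming 2% at each end, so no further normalization was applied. The 57 control probe sets were left out. The number of arrays limits the precision.

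Strain was taken from the sample titles, and the unnumbered sample of each strain is called 1. No array was a copy of another (at most 2 equal values in a pair). Strain was the only term of a limma 3.58.1 model (R 4.3.3) with an intensity trend on log2(signal + 16), over 18846 kept probe sets, with Benjamini-Hochberg adjustment; the script was tested on simulated data. Log2 differences understate the change of low signals. Dim probe sets were taken from a fit of all 31042. Symbols come from the platform annotation, updated to assembly GRCr8: 20826 probe sets had 1 symbol, 436 several and 9780 none. Probe sequences were not used here, and genome positions of genes served only to choose the neighbours of the members.

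The members and lists were chosen with earlier results of these data known. All probe sets of the members are named, with up to 3 genes past the threshold of each pathway list and the 3 genes most like each member. Slc17a6, Tlx3, Lmx1b, Gabra6, Cbln1, Kcnj3, Kcnj6, Snap25, Ptgds, Col1a2, Aldh1a2, Col3a1, Col1a1, Sostdc1, Aldh5a1 and the tested neighbours of Abat were named beside them. Alternatives were other normalizations, offsets of 1 and 64, other filters and moderation, array weights, a replicate block, a median-signal covariate, 1 probe set a gene, and leaving out arrays.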

Additional observations from a re-analysis of the deposited data

Results flagged for a closer look

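In 2 of the 32 groups of 5 arrays formed by the 16 probe sets and both strains, 1 array stood apart from the others of its strain by more than Dixon's critical value, which chance exceeds in about 1 of 20 groups. Both were SHR 2 on probe sets too dim for the filter: Gad2 had 14.2 in SHR 2 and 3.74 to 6.61 in the other SHR arrays, and Slc6a11 had 16.8 in SHR 2 and 22.9 to 24.2 in the other SHR arrays. No array stood apart by this measure on a kept probe set.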

How the results depend on the processing

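Over all probe sets 803 passed, with 450 to 945 when 1 array was left out, 471 without SHR 2 and SHR 3, 209 with the median-signal covariate, 437 with 1 probe set a gene and 1214 with the replicate block. The members that were lower numbered 1 as reported, 0 without the filter or without the intensity trend, 2 with quantile normalization or the replicate block, and 0 to 3 with 1 array left out. Those higher numbered 0, or 1 without SHR 5 (0 to 1). Pairs of probe sets past the threshold numbered 0 to 3 with 1 array left out. The Abat difference was -0.38 to -0.52 with 1 array left out (adjusted p = 0.0031 to 0.0639), and -0.43 with no call without the filter or the trend; over all 23 alternatives its adjusted p ran from 0.000687 to 0.0639. Signs turned for small differences: Slc6a13 gave -0.11 with quantile normalization, -0.031 with an offset of 1, -0.12 with array weights, -0.15 with the covariate, -0.22 without SHR 2 and SHR 3 and -0.11 to 0.11 with 1 array left out. Gabbr2 gave 0.017 and 0.0016 on its brighter and 0.044 and 0.10 on its dimmer probe set with the covariate and without SHR 2 and SHR 3; the dimmer gave 0.0080 with array weights and -0.19 to 0.031 with 1 array left out. The dim Abat probe set 1375321_at gave -0.20 with the covariate and -0.013 without SHR 2 and SHR 3, and Gabbr1 1388030_a_at gave -0.016 with quantile normalization. The cause of these changes was not tested, except that leaving out arrays or filtering changes how many are fitted. Deviations of same-numbered SHR and WKY arrays from their strain means correlated with r of 0.038 to 0.282. Arrays of unlike number were not compared, so whether the numbers pair the arrays was not tested. With the replicate block Abat stayed past the threshold in limma (adjusted p = 0.00858), Gad1 passed (0.0132) and Slc32a1 did not (0.0780).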
